A study of Mus musculus with 6 samples.

Results

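The 10 genes described here encode receptors and signalling partners of myeloid immune cells: the adaptors Fcer1g and Tyrobp, the IgG receptors Fcgr1, Fcgr2b, Fcgr3 and Fcgr4, the amplifying receptor Trem1, and the C-type lectins Clec4d, Clec4e and Clec7a. They were chosen by name, and all 10 were among the 18193 genes that the array measures, through 17 probe sets. Expression was measured in colon of C57BL/6 mice aged 6 to 8 weeks, collected 24 h after rectal injection of ethanol, in 3 groups of 2 arrays each: GPR41 KO, GPR43 KO and wild type (WT). GPR41, encoded by Ffar3, and GPR43, encoded by Ffar2, sense short-chain fatty acids, and all mice, WT included, had received ethanol. How the alleles were made and which part of each gene is missing are not given in the sources used here, nor is it stated whether each array holds a different animal, so that p-values measure only the spread between these samples.

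Fc receptors bind the constant part of antibodies and let phagocytes recognise coated microbes. Most of the activating ones, like Clec4d and Clec4e, have no signalling tail of their own and rely on the gamma chain encoded by Fcer1g, while Trem1 relies on DAP12, the product of Tyrobp. Both adaptors carry an immunoreceptor tyrosine-based activation motif (ITAM) that recruits the kinase Syk, and in the gut these genes are mainly known from neutrophils, monocytes and macrophages. Fcgr2b differs in carrying an inhibitory motif, and Clec7a, the beta-glucan receptor Dectin-1, signals through a motif in its own tail.

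The array signal (MAS5, linear scale, with the same trimmed mean in every array) had a median over all probe sets of 80.9 to 96.8 per array. In the library labelled GPR43 KO replicate 1, Ffar2 stood at 1.38 and 1.43 times the WT mean in its 2 probe sets, and in GPR43 KO replicate 2 at 0.163 and 0.0956 times. That library therefore goes against its label, and the GPR43 KO values of the 10 genes, their other probe sets, the genes near Tyrobp and the marker lists are also given without it. No probe set carried the symbol Ffar3, which leaves the label GPR41 KO without such a check. On the first principal component, which held 59.6% of the variance of the tested genes, the KO arrays lay between -20.1 and -11.2 and the WT arrays at 24.6 and 44.1.

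Of the 10 genes, 9 fell in GPR41 KO colon and 8 fell in the arrays labelled GPR43 KO, 0 rose in either, and the median log2 fold change was -2.29 and -2.08. The background in GPR41 KO was 3.11% of 10916 tested genes lower and 1.85% higher (4.96% in all). In GPR43 KO it was 2.41% lower and 1.55% higher (3.96% in all), and the median of all tested genes was 0.00057 and 0.030. The test was limma on log2(signal + 18), fitted over all genes, with Benjamini-Hochberg adjustment and a threshold of 0.05, and both comparisons share the WT arrays. Both GPR41 KO arrays lay below both WT arrays in 10 of the 10 genes (25.3% of all genes), both arrays labelled GPR43 KO in 9 (22.9%), and all 4 KO arrays in 9 (15.2%). A gene was tested when its mean log2 signal exceeded the 40th percentile of genes. All 10 passed, but Clec4e, Clec4d, Trem1 and Fcgr1 lay below the 40th percentile of genes in the mean over the KO arrays alone, so that they passed through their WT signal. With no filter on weak genes, 8 and 7 of the 10 fell (background 1.65% and 1.29% lower). With both KO groups averaged, 9 fell with the filter (3.79% of all genes) and 9 without it (2.18%). With the library labelled GPR43 KO replicate 1 left out, the median log2 fold change of the 10 genes in GPR43 KO was -2.28. Without GPR43 KO replicate 2 it was -1.87. Without WT replicate 2, Clec4e and Trem1 did not pass the filter on weak genes, and fewer of the 10 genes were called in each comparison. In GPR43 KO fewer were also called without either of its arrays. In these fits fewer of all tested genes were called as well.

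**Figure D1:**
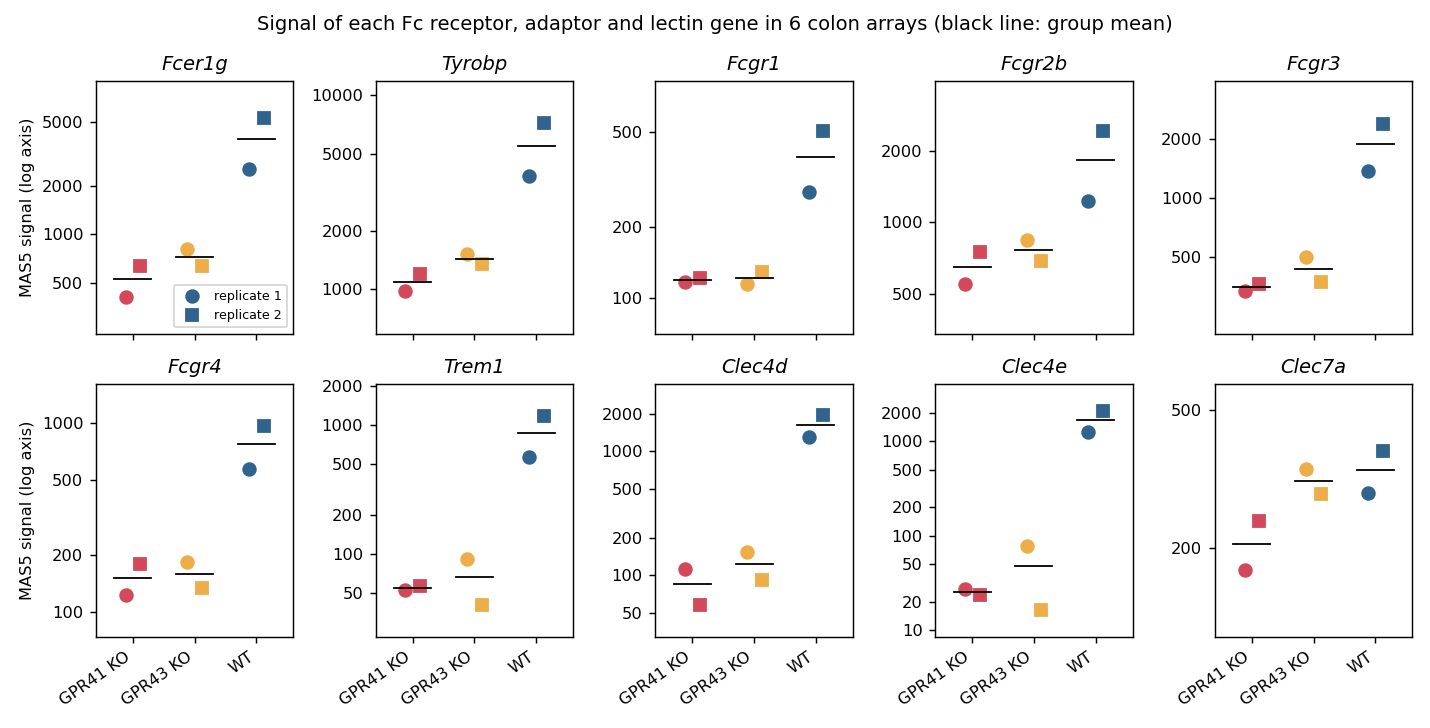
MAS5 signal of the 10 genes on a log axis, whose range differs between panels, with 1 point for each array (circle: replicate 1, square: replicate 2) and the group mean as a line. In every gene but Clec7a the 4 KO arrays lie below both WT arrays.

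The gamma chain adaptor Fcer1g had signals of 409 and 636 in GPR41 KO, 805 and 633 in the arrays labelled GPR43 KO, and 2559 and 5288 in WT. The KO arrays did not overlap with WT, and WT replicate 2 was 2.07 times WT replicate 1. The log2 fold change of Fcer1g was -2.81 ± 0.33 (adjusted p = 0.00224) in GPR41 KO and -2.34 ± 0.33 (adjusted p = 0.00684) in GPR43 KO (SE, n = 2 per group), which left 13.3% and 18.3% of the WT mean. Leaving out the library labelled GPR43 KO replicate 1 gave -2.51 for GPR43 KO, still past the threshold, and leaving out GPR43 KO replicate 2 gave -2.17 (adjusted p = 0.053).

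Tyrobp, which encodes the adaptor DAP12, gave 972 and 1193 in GPR41 KO, 1521 and 1337 in the arrays labelled GPR43 KO, and 3827 and 7159 in WT. All KO values lay below both WT values, and the spread within each KO group was small beside the distance to WT. Tyrobp changed by -2.26 ± 0.26 (adjusted p = 0.0022) on the log2 scale in GPR41 KO and by -1.86 ± 0.26 (adjusted p = 0.00664) in GPR43 KO. The second value was -1.96 with the library labelled GPR43 KO replicate 1 left out and -1.77 (adjusted p = 0.0503) with GPR43 KO replicate 2 left out. In colon pieces, fewer cells of a type and less RNA per cell cannot be told apart, and this holds for every gene given here.

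Tyrobp lies on chromosome 7, 404 kb from Ffar2, the gene targeted in GPR43 KO mice, so its neighbours were read beside it. The position of Ffar3, the gene targeted in GPR41 KO mice, was not read here, so GPR41 KO is not a comparison known to be free of this region. Of the 25 other tested genes within 0.5 Mb of Tyrobp (RefSeq, GRCm38.p6), 1 rose and 2 fell in GPR41 KO, and 1 rose and 1 fell in GPR43 KO, against 4.96% and 3.96% of all tested genes in either direction. Their median log2 fold change was -0.062 and -0.046. The called genes were Cox7a1, a subunit of cytochrome oxidase in muscle (1.26 and 1.12), Dmkn, a gene of keratinised epithelium (-2.12 and -2.59), and, in GPR41 KO, Sbsn, another such gene (-1.95, against -1.71 in GPR43 KO, adjusted p = 0.0706). Averaged over the KO arrays alone, Sbsn lay below the filter on weak genes, so that it was tested through its WT signal. Hcst, the gene next to Tyrobp and itself the adaptor DAP10 of natural killer cell receptors, had 209.7 and 283 in GPR41 KO, 221 and 159 in the arrays labelled GPR43 KO, and 253 and 360.2 in WT. Its log2 fold change was -0.29 (adjusted p = 0.622) and -0.64 (adjusted p = 0.246), and the GPR41 KO arrays overlapped with WT. Nfkbid, on the other side of Hcst, stood at -0.68 (adjusted p = 0.434) and -1.09 (adjusted p = 0.199). With the library labelled GPR43 KO replicate 1 left out, the median of the 25 in GPR43 KO was -0.12. Dmkn stood at -3.18, Sbsn at -2.46 and Ffar2 itself at -2.50. Cox7a1 (1.24, adjusted p = 0.114), Hcst (-0.85, adjusted p = 0.285) and Nfkbid (-1.42, adjusted p = 0.234) did not pass there. In GPR41 KO, Cox7a1, Dmkn and Sbsn lost their calls without either GPR41 KO array, where fewer of all tested genes were called too. Dmkn and Sbsn did not pass without WT replicate 2 nor Sbsn without WT replicate 1. The GPR43 KO call of Cox7a1 held in 1 of the 6 fits with an array left out, that without WT replicate 1.

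**Figure D2:**
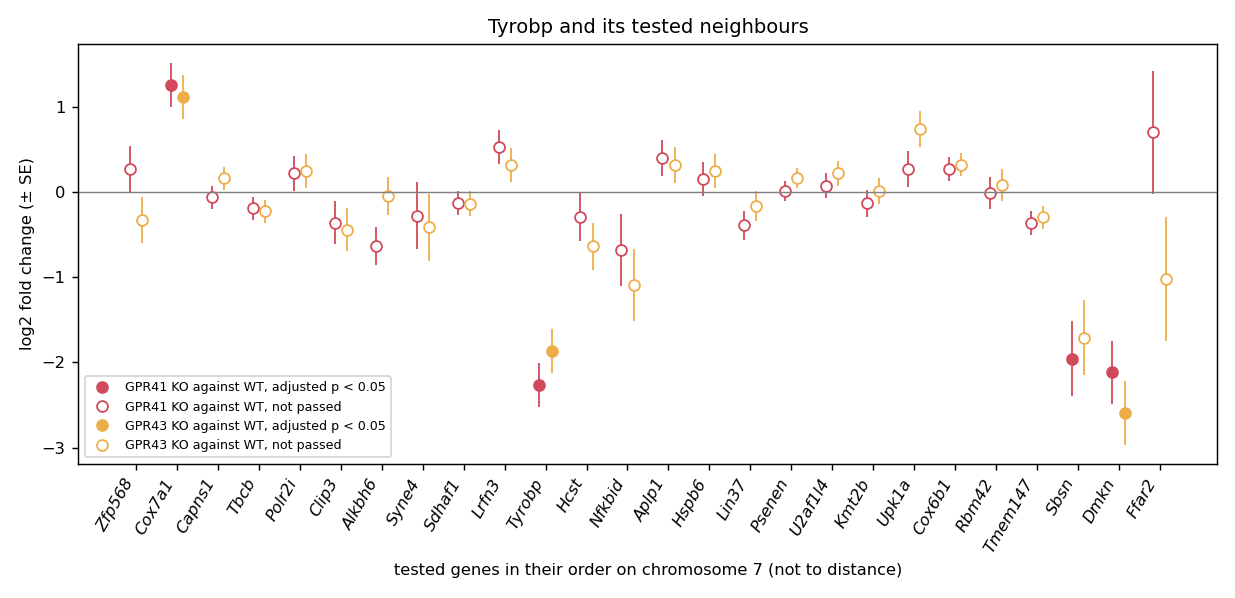
Log2 fold change against WT (± SE) of Tyrobp and of the tested genes within 0.5 Mb of it, in their order on chromosome 7, with filled points for an adjusted p under 0.05. Tyrobp stands at -2.26 and -1.86, between Lrfn3 and Hcst, for which neither comparison passed.

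The IgG receptors that pair with the gamma chain fell with it. Fcgr1, the high-affinity IgG receptor, had 117 and 122 in GPR41 KO, 114 and 129 in the arrays labelled GPR43 KO, and 279 and 507 in WT. The 4 KO arrays lay close together, from 114 to 129, and below both WT arrays. The log2 fold change was -1.52 ± 0.31 (adjusted p = 0.0271) in GPR41 KO and -1.50 ± 0.31 (adjusted p = 0.0345) in GPR43 KO, and neither call held with no filter on weak genes (adjusted p = 0.0547 and 0.0647). Over all alternatives in which Fcgr1 was tested, the GPR41 KO call held in 12 of 17 and the GPR43 KO call in 8 of 17. Leaving out the library labelled GPR43 KO replicate 1 gave -1.42 for GPR43 KO (adjusted p = 0.13), and leaving out WT replicate 2 gave -1.11 for GPR41 KO (adjusted p = 0.184). The GPR41 KO call was also lost with either GPR41 KO array left out, and the GPR43 KO call with GPR43 KO replicate 2 left out (adjusted p = 0.133). Its second probe set gave -1.21 and -1.15 in the fit over all probe sets (adjusted p = 0.266 and 0.292), and -1.63 in GPR43 KO without that library (adjusted p = 0.296).

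Fcgr3, a low-affinity activating receptor, gave 338 and 365 in GPR41 KO, 500.4 and 374 in the arrays labelled GPR43 KO, and 1385 and 2396 in WT. The KO and WT arrays did not overlap, and both GPR41 KO arrays lay close together. Fcgr3 changed by -2.32 ± 0.26 (adjusted p = 0.00191) in GPR41 KO and by -2.03 ± 0.26 (adjusted p = 0.00437) in GPR43 KO on the log2 scale, and both calls held under every alternative run, and leaving out the library labelled GPR43 KO replicate 1 gave -2.23 for GPR43 KO (adjusted p = 0.0104). Fcgr4, a mouse receptor for certain IgG subclasses, gave 123 and 178 in GPR41 KO, 185 and 134 in the arrays labelled GPR43 KO, and 574 and 970.5 in WT. All KO values lay far below both WT values. The log2 fold change was -2.20 ± 0.31 (adjusted p = 0.00494) in GPR41 KO and -2.12 ± 0.31 (adjusted p = 0.00807) in GPR43 KO, and the second became -2.33 with the library labelled GPR43 KO replicate 1 left out and -1.92 (adjusted p = 0.0579) with GPR43 KO replicate 2 left out.

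Fcgr2b, the inhibitory IgG receptor that B cells express as well, was lower by a smaller factor than Fcgr3 and Fcgr4. In the probe set with the highest signal it had 550.0 and 750.5 in GPR41 KO, 843 and 688 in the arrays labelled GPR43 KO, and 1233 and 2432 in WT, again without overlap. Its log2 change in GPR41 KO was -1.41 ± 0.29 (adjusted p = 0.0302), while the value of -1.17 ± 0.29 (adjusted p = 0.0665) in GPR43 KO did not pass. The GPR41 KO call was lost without either GPR41 KO array and without WT replicate 2 (-0.92, adjusted p = 0.0792), and without WT replicate 1 the GPR43 KO value was -1.65 (adjusted p = 0.00224). With the library labelled GPR43 KO replicate 1 left out it was -1.31 (adjusted p = 0.135). With the median of each array aligned, the GPR43 KO value of -1.17 passed as well (adjusted p = 0.0179). The GPR41 KO call was also lost with eBayes without trend (adjusted p = 0.0814) and in the fit over all probe sets (adjusted p = 0.0696). In the fit over all probe sets, 3 other probe sets of Fcgr2b gave -1.63, -1.38 and -1.33 in GPR41 KO (adjusted p = 0.0116, 0.0408 and 0.0661). For GPR43 KO these 3 stood at -1.45, -1.28 and -1.34 (adjusted p = 0.0239, 0.06655 and 0.07565). The probe set at -1.63 and -1.45 thus passed in both comparisons, and the one at -1.38 passed for GPR41 KO only. The call at -1.63 was lost without either GPR41 KO array. The calls at -1.45 and -1.38 were lost in each fit with an array left out but that without WT replicate 1. The fifth, with signals of at most 11.3 in any array, did not differ measurably (0.10 and 0.30, adjusted p = 0.956 and 0.802). Once the library labelled GPR43 KO replicate 1 was left out, the 3 gave -1.61, -1.40 and -1.72 in GPR43 KO (adjusted p = 0.118, 0.245 and 0.0774) and the fifth 0.56 (adjusted p = 0.692). Fcgr2b and Fcgr3 are close relatives in sequence, and names ending in _s_at or _x_at mark probes that can match several transcripts, so cross-binding between these genes was not separated here.

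Within each array, the log2 difference of Fcgr3 and Fcgr2b, set to 0 at the WT mean, was -0.75 and -1.08 in the GPR41 KO arrays, -0.80 and -0.92 in the arrays labelled GPR43 KO, and 0.094 and -0.094 in the WT arrays. The activating receptor was thus lower relative to the inhibitory one in 4 of 4 KO arrays. The mean difference between the KO and WT arrays was -0.89 on the log2 scale, with a two-sided exact permutation p of 0.0667, the smallest that 4 arrays against 2 can give. It ranged from -0.98 to -0.79 with each array left out in turn.

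**Figure D3:**
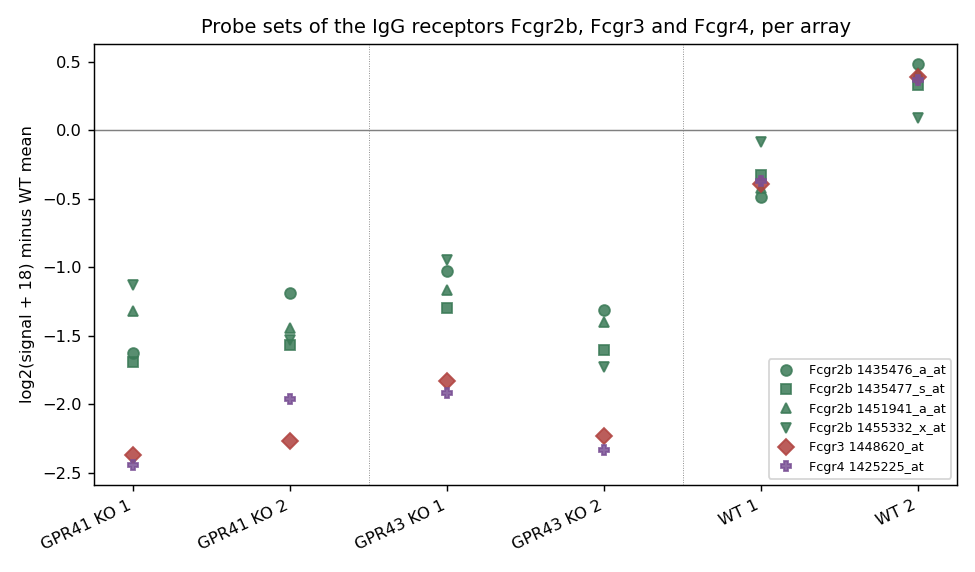
Log2(signal + 18) minus the WT mean in each array for Fcgr3, Fcgr4 and the 4 Fcgr2b probe sets with signal. In each KO array the Fcgr3 point lies below all 4 Fcgr2b points.

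Trem1, which amplifies the inflammatory response of neutrophils and monocytes, had 52.9 and 56.2 in GPR41 KO, 91.3 and 40.8 in the arrays labelled GPR43 KO, and 564 and 1165 in WT. The KO arrays reached 91.3 at most and lay far below both WT arrays, with WT replicate 2 at 2.07 times WT replicate 1. The log2 fold change was -3.52 ± 0.41 (adjusted p = 0.0024) in GPR41 KO and -3.37 ± 0.41 (adjusted p = 0.00415) in GPR43 KO, where it was -3.82 with the library labelled GPR43 KO replicate 1 left out (adjusted p = 0.00511). The other Trem1 probe set gave 21.5 and 6.90 in GPR41 KO, 46.5 and 6.01 in the arrays labelled GPR43 KO, and 383 and 927 in WT. It stood at -4.29 and -3.97, both past the threshold in the fit over all probe sets (adjusted p = 0.0127 and 0.0232). The GPR43 KO call was lost in each fit with an array left out but that without WT replicate 1, and without the library labelled GPR43 KO replicate 1 its value was -4.68 (adjusted p = 0.0595). The GPR41 KO call was lost without either GPR41 KO array and without WT replicate 2 (adjusted p = 0.109, 0.14 and 0.104).

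Clec4e, the lectin Mincle, which binds glycolipids of mycobacteria and a product of dying cells, kept the lowest share of its WT level among the probe sets used for the 10 genes, with KO signals near the pseudocount. It gave 27.3 and 23.3 in GPR41 KO, 78.1 and 16.2 in the arrays labelled GPR43 KO, and 1263 and 2121 in WT. The fold depends on the pseudocount of 18. The library labelled GPR43 KO replicate 1 was the highest of the 4 KO arrays. Clec4e changed by -5.26 ± 0.48 (adjusted p = 0.000866) in GPR41 KO and by -4.85 ± 0.48 (adjusted p = 0.0015) in GPR43 KO on the log2 scale, and the second call also held without that library (adjusted p = 0.000412). Its weaker probe set gave 14.6 and 41.6 in GPR41 KO, 22.8 and 3.10 in the arrays labelled GPR43 KO, and 257 and 266 in WT, with log2 fold changes of -2.67 and -3.25 (adjusted p = 0.0408 and 0.023 over all probe sets). That left 10.7% and 4.96% of its WT mean, where Clec4d kept 5.20% and Trem1 6.32% in GPR41 KO. Neither call of the weaker probe set held in any fit with an array left out (adjusted p from 0.0556 to 0.315 in GPR41 KO and from 0.0568 to 0.198 in GPR43 KO), and without the library labelled GPR43 KO replicate 1 it stood at -3.73 (adjusted p = 0.0695).

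Clec4d, which encodes a lectin that forms pairs with Mincle, had 112 and 57.1 in GPR41 KO, 154 and 91.5 in the arrays labelled GPR43 KO, and 1302 and 1946 in WT. The KO arrays lay between 57.1 and 154, and the lower WT array was at 1302. The log2 fold change was -4.03 ± 0.35 (adjusted p = 0.000746) in GPR41 KO and -3.55 ± 0.35 (adjusted p = 0.0015) in GPR43 KO, and both calls held under every alternative in which it was tested (it did not pass the filter at the 60th percentile). Leaving out the library labelled GPR43 KO replicate 1 gave -3.88 for GPR43 KO (adjusted p = 0.00273).

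Clec7a gave 173 and 239 in GPR41 KO, 338 and 286 in the arrays labelled GPR43 KO, and 289 and 382 in WT. The GPR41 KO arrays lay below both WT arrays, and the arrays labelled GPR43 KO overlapped with WT. On the log2 scale Clec7a differed by -0.66 in GPR41 KO (95% interval -1.23 to -0.10, adjusted p = 0.182) and -0.09 in GPR43 KO (-0.65 to 0.47, adjusted p = 0.882). Leaving out the library labelled GPR43 KO replicate 1 gave -0.20 (adjusted p = 0.816). Clec7a was thus the one member for which neither comparison passed.

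**Figure D4:**
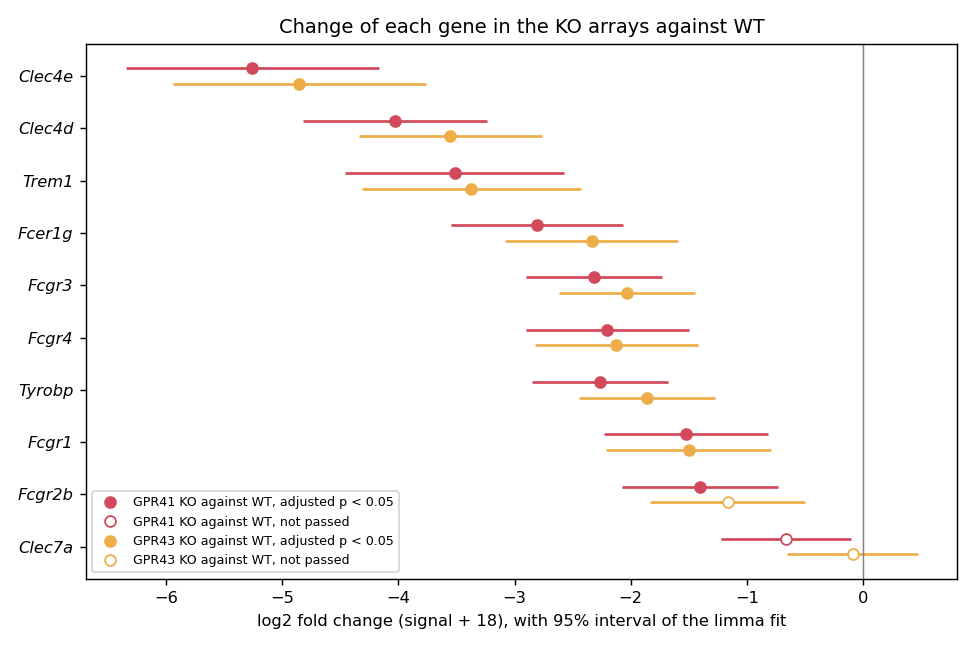
Log2 fold change of each gene in GPR41 KO and in GPR43 KO against WT, with the 95% interval of the limma fit and filled points for an adjusted p under 0.05. Clec4e lies lowest at -5.26 and -4.85 and Clec7a nearest to 0 at -0.66 and -0.09.

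The promoters of these genes are shown because most of these genes were low together, and PU.1 is a factor known to act at promoters of myeloid genes. The stretch of 250 bases before the RefSeq start (GRCm38.p6) was searched on both strands for GAGGAA, the core of the PU.1 motif, and for GAGGAAGT, a longer form that contains it. A start was listed for 9 of the 10 genes, and 7 of these held the core: Clec4d, Clec4e, Clec7a, Fcgr1, Fcgr3, Fcgr4 and Trem1. Of all 27025 genes with a listed start, 25.9% held it in at least 1 promoter. The longer form was found for Fcgr4 alone of the members and for 2.79% of all genes. Clec7a, which did not pass in either comparison, held a match, as did Clec4e, while the windows of Fcer1g and Fcgr2b held none. A match is a description of letters and not a binding site. The windows of a lectin that fell in both KO groups (Clec4e, chr6:123289872-123290121, minus strand), of the lectin that did not pass (Clec7a, chr6:129472780-129473029, minus strand), of the receptor with the longer form (Fcgr4, chr1:171018676-171018925, plus strand) and of the gamma chain (Fcer1g, chr1:171234350-171234599, minus strand) follow, 5′ to 3′ in the direction of the gene, with the core or its reverse complement in capitals.
Clec4e: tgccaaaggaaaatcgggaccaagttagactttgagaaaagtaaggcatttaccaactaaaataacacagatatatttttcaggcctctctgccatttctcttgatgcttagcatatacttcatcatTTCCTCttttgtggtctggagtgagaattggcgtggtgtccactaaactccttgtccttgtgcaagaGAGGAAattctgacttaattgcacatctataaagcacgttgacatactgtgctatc
Clec7a: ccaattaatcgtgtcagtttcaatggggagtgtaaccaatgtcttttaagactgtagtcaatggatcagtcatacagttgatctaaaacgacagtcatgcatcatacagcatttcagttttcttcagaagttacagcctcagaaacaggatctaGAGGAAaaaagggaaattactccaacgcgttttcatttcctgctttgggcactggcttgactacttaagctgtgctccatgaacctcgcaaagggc
Fcgr4: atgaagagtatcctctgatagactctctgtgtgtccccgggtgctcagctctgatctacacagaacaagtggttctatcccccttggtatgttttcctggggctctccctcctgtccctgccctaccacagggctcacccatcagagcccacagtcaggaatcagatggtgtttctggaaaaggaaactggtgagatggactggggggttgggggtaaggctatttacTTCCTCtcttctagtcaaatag
Fcer1g: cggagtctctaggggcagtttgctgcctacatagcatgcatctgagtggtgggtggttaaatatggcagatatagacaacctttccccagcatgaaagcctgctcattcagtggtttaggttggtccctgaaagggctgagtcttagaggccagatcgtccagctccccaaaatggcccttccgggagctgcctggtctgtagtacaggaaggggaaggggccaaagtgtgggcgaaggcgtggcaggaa

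In the direct comparison of GPR43 KO with GPR41 KO, 0 of the 10 genes passed in limma (background 0% of 10916 genes). At an unadjusted p under 0.05 there was 1, Clec7a, which was higher in the arrays labelled GPR43 KO by 0.57 on the log2 scale (95% interval 0.013 to 1.13, adjusted p = 0.87). The other 9 differences ranged from 0.024 to 0.48, and the median was 0.34. With the library labelled GPR43 KO replicate 1 left out, Clec4e (-0.34), Trem1 (-0.30) and Fcgr4 (-0.13) turned below 0, while the other members stayed above 0. For Tyrobp (0.40, -0.19 to 0.98), Fcgr3 (0.29, -0.30 to 0.87) and Clec7a both arrays labelled GPR43 KO lay above both GPR41 KO arrays, a pattern that 23.1% of all tested genes showed. For the other 7 the groups overlapped. The intervals are wide, so that these data do not show the KO groups to be alike.

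Among the kinases and adaptors downstream of ITAMs, 3 of 15 tested genes fell when both KO groups were averaged and set against WT, 0 rose and 12 did not pass, with a median of -0.16. In all 10916 genes 3.79% were called lower. The 3 were Rac2, a small GTPase of the phagocyte oxidase (-2.30 ± 0.29, adjusted p = 0.00231), Lcp2, the scaffold SLP-76 (-2.07 ± 0.27, adjusted p = 0.00296), and the Src family kinase Fgr (-1.53 ± 0.28, adjusted p = 0.015). Fgr lost its call without WT replicate 2, where it stood at -1.10, and Lcp2 with its probe sets averaged (-0.67, adjusted p = 0.126). Averaged over the KO arrays alone, Lcp2 lay below the filter on weak genes, so that it was tested through its WT signal. Rac2 had 458 and 662 in GPR41 KO, 654 and 441 in the arrays labelled GPR43 KO, and 1918 and 3957 in WT. Both WT arrays lay above all KO arrays. Syk, the kinase that binds the ITAM, gave 1064 and 1114 in GPR41 KO, 919.8 and 1049 in the arrays labelled GPR43 KO, and 999.5 and 1270.2 in WT. Its groups overlapped and its change was -0.12 (adjusted p = 0.652). Plcg2, a phospholipase that Syk activates, stood at -0.49 (adjusted p = 0.157).

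Of 13 tested inhibitory receptors and phosphatases, 5 fell with both KO groups averaged, 0 rose and 8 did not pass, with a median of -0.91. In GPR41 KO 6 fell and in GPR43 KO 4 did, where 3.79% of all genes were called lower with the groups averaged, 3.11% in GPR41 KO and 2.41% in GPR43 KO. Fewer genes of this list were called without WT replicate 2, and in GPR43 KO without either array labelled GPR43 KO. In these fits fewer of all tested genes were called as well. Cd300lf, an inhibitory receptor for lipids, had 124 and 104 in GPR41 KO, 206 and 111 in the arrays labelled GPR43 KO, and 946 and 1618 in WT, a log2 fold change of -3.07 ± 0.29 (adjusted p = 0.00062). Pirb, which binds MHC class I, gave 75.5 and 82.5 in GPR41 KO, 157 and 86.4 in the arrays labelled GPR43 KO, and 789.7 and 1026 in WT, and stood at -3.00 ± 0.26 (adjusted p = 0.000443). In both genes the KO and WT arrays did not overlap. The other 3 were the receptor Pilra (-2.46), the lectin Clec4a2 (-2.11) and the adaptor Dok3 (-1.13), whose call was lost without WT replicate 2 (adjusted p = 0.162) and without GPR41 KO replicate 1 (adjusted p = 0.0528). Averaged over the KO arrays alone, Pirb, Pilra and Clec4a2 lay below the filter on weak genes, so that they were tested through their WT signal. With no filter, 7 of 17 measured genes of this list fell with the KO groups averaged, against 2.18% of all genes. Of the 3 phosphatases listed, 2 were lower in each KO array than in either WT array without passing. They were Ptpn6 at -0.64 (adjusted p = 0.0656) and Inpp5d at -0.96 (adjusted p = 0.0826). The other, Ptpn11, gave 2444 and 2230.0 in GPR41 KO, 2265 and 2364 in the arrays labelled GPR43 KO, and 2169.7 and 2450.4 in WT, with overlapping groups.

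Among the other ITAM-coupled receptors and adaptors only 6 of 22 measured genes passed the filter on weak signals. With both KO groups averaged 2 of these fell (3.79% of all genes were called lower), in GPR41 KO 2 (3.11%) and in GPR43 KO 1 (2.41%). In the mean they were Pilrb1, the activating partner of Pilra (-1.75, adjusted p = 0.0155), and Cd300ld, a receptor of the Cd300 family (-1.10, adjusted p = 0.0155). Without WT replicate 2 their values were -1.20 and -0.86, and neither call held. With no filter, 4 of 22 fell (2.18% of all genes): these and Trem3, a DAP12-coupled relative of Trem1 in mice (-2.15, adjusted p = 0.00792), and Cd300lb (-1.70, adjusted p = 0.0496). Trem3 had 42.6 and 47.2 in GPR41 KO, 78.9 and 89.6 in the arrays labelled GPR43 KO, and 258 and 442 in WT. All 4 KO values were below both WT values.

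Of 5 other Fc receptors tested, 1 rose in the mean of both KO groups, 0 fell and 4 did not pass, where 3.2% of all genes were called higher. Pigr, which carries IgA and IgM across the epithelium, gave 36811 and 40438 in GPR41 KO, 43781 and 44525 in the arrays labelled GPR43 KO, and 30129 and 29856 in WT. Its change of 0.46 ± 0.11 (adjusted p = 0.0433) was small. It passed in 6 of 17 alternatives, and its adjusted p was 0.159 at the highest. Fcgrt, the neonatal Fc receptor that recycles IgG, gave 1588 and 2189 in GPR41 KO, 2124 and 1951 in the arrays labelled GPR43 KO, and 1979 and 2138 in WT, with overlapping groups (-0.077, adjusted p = 0.798).

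**Figure D5:**
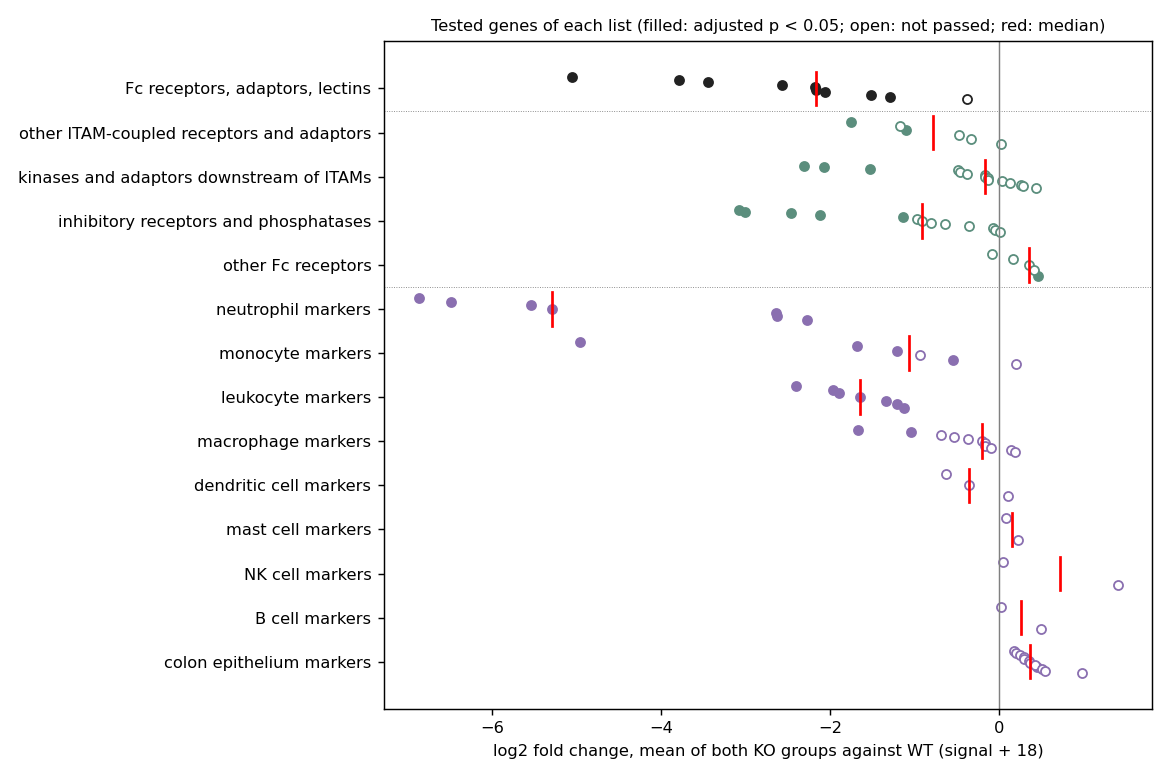
Log2 fold change of each tested gene, both KO groups averaged against WT, by list, with filled points for an adjusted p under 0.05 and the median of each list in red. The 10 genes have a median of -2.17, the 7 tested neutrophil markers -5.29 and the 11 tested macrophage markers -0.20.

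Markers of the cells that express these genes were read beside them. Of 16 neutrophil markers 14 were measured and 7 tested, and 7 of 7 fell in each KO group (background 3.11% lower in GPR41 KO and 2.41% in GPR43 KO). Their summed signal was 1193 to 1199.8 in GPR41 KO and 1259 to 3338 in GPR43 KO, against 74129 to 132604 in WT, and the highest KO sum belongs to the library labelled GPR43 KO replicate 1. None was at 0, and Mpo, Elane and Camp, which are made in immature neutrophils, were weak in most arrays (at most 59.4, 165 and 398.5). Of the tested markers, Ngp, Mmp8 and Itgam had at most 88.4, 80.9 and 110 in any KO array. These values lie below the filter on weak genes, so that these markers were tested through their WT signal. Csf3r, with 53.8 and 97.9 in GPR41 KO and 224 and 100 in the arrays labelled GPR43 KO, lay below it in the mean over the KO arrays. The fall of Ngp, Mmp8, Itgam and Csf3r is thus not independent of that filter. Of 14 macrophage markers 13 were measured and 11 tested. In the mean of both KO groups (background 3.79% lower and 3.2% higher) 2 fell, Cd68 (-1.66) and Lyz2 (-1.04), and the other 9 did not pass, among them Adgre1 (-0.68), Csf1r (-0.36), C1qa (-0.20) and Mertk (-0.09). The summed macrophage signal was 13132 to 17143 in GPR41 KO and 17719.7 to 19114 in GPR43 KO, against 22963 to 31272 in WT. Of 6 tested monocyte markers 4 fell, and 7 of 7 markers shared by leukocytes did, with medians of -1.07 and -1.65. The monocyte marker Ccr2 lay below the filter on weak genes in the mean over the KO arrays, so that it was tested through its WT signal. The summed monocyte signal was 37981 to 39975 in GPR41 KO and 38430.0 to 41986 in GPR43 KO, against 38153 to 49017 in WT, so that these sums overlapped. Plac8 alone held most of that sum, with 33566 to 37368 in the KO arrays, against 28068 and 33444 in WT. The other 5 summed to 3605 to 3972 in GPR41 KO and 4618 to 4864 in GPR43 KO, against 10085 and 15574 in WT, without overlap. The summed leukocyte signal was 3917 to 5521 in GPR41 KO and 4944 to 5823 in GPR43 KO, against 13205 to 20263 in WT. Of 12 epithelial markers 1 rose, Vil1 (0.46, adjusted p = 0.0473), and all 12 point estimates were above 0 (median 0.37). Vil1 passed in 5 of 17 alternatives, and its adjusted p was 0.241 at the highest. Natural killer, B, mast and dendritic cell markers had 2, 2, 2 and 3 tested genes, none of them past the threshold in limma (at an unadjusted p under 0.05 there was 1, the natural killer marker Gzma), and no eosinophil marker was tested. The GPR43 KO medians of neutrophil, macrophage, monocyte and leukocyte markers were -5.30, -0.13, -0.92 and -1.48 with all arrays. They were -5.225, -0.23, -0.78 and -1.66 with the library labelled GPR43 KO replicate 1 left out. Without GPR43 KO replicate 2 they were -4.755, -0.042, -1.06 and -1.46. In both fits fewer macrophage, monocyte and leukocyte markers were called, as were fewer of all tested genes. Without GPR43 KO replicate 2 fewer neutrophil markers were called too. In GPR41 KO the macrophage, monocyte and leukocyte medians were -0.33, -1.21 and -1.82. They were -0.22, -1.16 and -1.68 without GPR41 KO replicate 1, where fewer of these markers were called. Without WT replicate 1 they were -0.66, -1.155 and -2.28, with more macrophage markers and more of all tested genes called. Fewer monocyte markers were called in GPR41 KO without GPR41 KO replicate 2, and in each comparison without WT replicate 2. Fewer of all tested genes were called without either GPR41 KO array and without WT replicate 2 as well. The natural killer median in the mean of both KO groups was 0.995 without GPR41 KO replicate 1, against 0.73 with all arrays. The part of these cell markers in the lower signal of the 10 genes was not tested.

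By root mean square difference of the log2 signals over the 6 arrays, after removing each gene's mean, the tested genes most like Tyrobp were Slc11a1 (0.0944), Cxcl1 (0.109), Fcgr3 (0.114), Cd14 (0.119) and Coro1a (0.153). For Fcer1g they were Emb (0.162), Il33 (0.165), C5ar1 (0.183), Itgb2 (0.21) and Ncf1 (0.212). Fcgr3 was thus the one member among the 5 genes nearest to either adaptor.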

How the data were processed

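Total RNA (2 µg) from each colon sample was amplified, labelled with biotin and hybridised to 1 array, per the labels' protocols. The files hold 1 intensity for each probe set, computed by the authors with MAS5 per the submitters' processing notes, with no version given there. They are on a linear scale, and their mean without the lowest and highest 2% of probe sets is equal in all 6 arrays. Of 45101 probe sets, 34958 had 1 gene symbol in the platform annotation, 932 several and 9211 none, and 34741 were matched to RefSeq (GRCm38.p6) by gene identifier. For each gene the probe set with the highest mean log2 signal was kept, which gave 18193 genes. Before log2, 18 was added to each value as a pseudocount (20th percentile of the values). It understates the change of weak genes.

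Genes above the 40th percentile of mean log2 signal (10916) were fitted with limma 3.58.1 in R 4.3.3 (1 mean per group, all 6 arrays, eBayes with trend, 8.71 degrees of freedom, two-sided). Adjusted p-values are Benjamini-Hochberg over the whole table of tested genes, and ± gives the SE of the fit. The number of arrays limits the precision, and with 2 arrays a group the smallest exact permutation p is 0.333. The procedure was tested on simulated data. Alternatives varied the pseudocount, a floor, the scaling, the filter, the choice of probe sets, the variance model, the samples, a replicate block and each array left out. Those for the pathway lists and their genes, and each array left out for marker lists, neighbours and other probe sets, were added after seeing the data.

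Members and lists were chosen with earlier results of these data known. Named genes were the members, up to 6 tested genes of each list with the smallest p and any in a count of 5 or fewer, the genes near Tyrobp, and the 5 genes nearest to each adaptor. Trem3, Cd300lb, Ptpn11, Hdc, Kit, Cd33 and the cell markers were named after their values were seen.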

Additional observations from a re-analysis of the deposited data

How the results depend on the processing

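Over the 3 comparisons with WT, 463 of 494 recomputed values of the 10 genes kept their direction and their side of the threshold, 27 lost the call, 2 gained it and 2 changed sign. Every gene-level value of Fcgr3, Trem1, Clec4d and Clec4e that was computed stayed past the threshold. Calls of the other probe sets of Trem1 and Clec4e were lost in fits with an array left out. Clec4e did not pass the filter on weak genes with a pseudocount of 1, a floor, the filter at the 60th percentile, or either WT array left out. Trem1 did not pass it at the 60th percentile or with either WT array left out. The calls of these genes were therefore not checked under those settings. With the filter at the 60th percentile only 4 of the 10 genes were tested, and 4 were called in GPR41 KO, 3 in GPR43 KO and 4 in the mean of both. With each array left out in turn, the number called ranged from 5 to 9 in GPR41 KO, from 4 to 7 in GPR43 KO and from 5 to 9 in the mean, where the lone array of a group is assumed to vary like the others. With an array left out, Clec7a in GPR43 KO against WT ranged from -0.28 to 0.10 and Syk in the mean of both KO groups from -0.29 to 0.048. The weakest probe set of Fcgr2b in GPR41 KO ranged from -0.081 to 0.27. In GPR43 KO against GPR41 KO, where no member was called under any alternative, the sign turned for Fcgr1 (-0.067 with quantile normalization, -0.071 with median centring, and from -0.053 to 0.10 with an array left out), Fcgr4 (-0.0061 and -0.018, and from -0.16 to 0.32), Clec4e (-0.0899 with the mean over probe sets, and from -0.34 to 1.15 with an array left out) and Trem1 (from -0.30 to 0.59 with an array left out). The cause of these turns was not tested.

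Equal replicate numbers are not said to pair arrays, and the differences of replicate 2 from replicate 1 correlated between groups at -0.0537, 0.107 and -0.271 over genes. With a replicate block the numbers called were 9, 8 and 9 of 10 members, while all genes called were 401 in GPR41 KO (541 without the block) and 295 in GPR43 KO (432 without it). Fitting the mean of both KO groups with only the groups compared uses all arrays and gives no other value. Weak KO signals limit the folds of Clec4e, Clec4d and Trem1.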

Other observations

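Hdc, histidine decarboxylase, was listed among the mast cell markers and did not pass the filter on weak genes. It had at most 17.4 in any KO array, against 716 and 1962 in WT. The KO arrays did not overlap with WT. The mast cell gene Kit gave 501 and 672 in GPR41 KO, 802 and 730.1 in the arrays labelled GPR43 KO, and 707 and 553 in WT. For Kit the GPR41 KO arrays overlapped with WT, and both arrays labelled GPR43 KO lay above both WT arrays. The mast cell receptor genes Fcer1a and Ms4a2 were at most 48.0 and 57.9 in any array. Among inhibitory receptors below the filter, Cd33 gave 6.04 and 6.86 in GPR41 KO, 8.75 and 8.65 in the arrays labelled GPR43 KO, and 159 and 293 in WT. These genes were picked after their values were seen.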
